A study of Homo sapiens with 4 samples.

Results

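This account describes the promoters of gene families that arose by segmental duplication, as measured by ATAC-seq in HEK293T cells with and without MORC2. HEK293T is a human embryonic kidney line, and ATAC-seq counts fragments released where a transposase reaches open DNA. Members were the rows of the promoter count table whose gene symbol belongs to NBPF, NPIPA or NPIPB, GOLGA6 or GOLGA8, FAM72, SRGAP2, NOTCH2, CNTNAP3, ANKRD20A, FRG1, ARHGAP11 or GTF2IRD2. This gave 113 of 28775 rows in 11 families, with GOLGA6 and GOLGA8 taken as 1 family. The families were selected on the KO and WT counts of the promoters around some of them, which were higher without MORC2, so every comparison of the groups below is a description and supports nothing. The levels of the copies, their sequences and the spread between replicates did not enter that choice.

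The study compared 2 libraries from MORC2 knockout (KO) cells with 2 from wild-type (WT) cells of the same line. Each KO library came from a bulk pool edited with its own guide RNA, so guide and replicate cannot be told apart, and a bulk pool can hold cells that were not edited. The WT libraries were independent replicates, and no further treatment or time point was labelled. MORC2 encodes an ATPase that works with the HUSH complex in silencing heterochromatin. The share of cells with an open promoter, the openness per cell and the number of gene copies cannot be told apart in such bulk counts.

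Segmental duplications are long stretches of DNA that were copied within the genome and remain nearly identical. They are dense around the centromere of chromosome 1 and on chromosomes 15 and 16, and they hold genes that expanded in apes and humans. NBPF genes encode repeats of the Olduvai (DUF1220) domain, NPIP genes encode nuclear pore complex interacting proteins, and GOLGA6 and GOLGA8 genes are relatives of a golgin. The human copies of SRGAP2, NOTCH2 and ARHGAP11A are known for roles in the developing cortex. Because reads from identical copies have no unique place, counts in these families depend on which copies a 65-base read can tell apart. The authors aligned to T2T-CHM13, an assembly in which the duplications are resolved, and removed reads of low mapping quality.

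Over all rows, the libraries held 9435801 to 15152636 counts, of which 20.6% to 35.1% fell on mitochondrial rows, with the lowest share in the deepest library, KO replicate 2. Member rows held 0.103% to 0.107% of the nuclear counts in each library. The promoter of MORC2 itself had 403 and 639 counts in KO and 247 and 267 in WT, a difference of 0.43 on the log2 scale (SE 0.087), which does not check the edit. Promoters of kidney regulators (EYA1, LHX1, PAX2, SALL1) and of NEFM had 5.75 to 58.7 CPM, the count scaled to library size, in WT, against 1.71 to 5.07 for 5 genes of other cell types (ALB, CD3E, HBB, INS, PTPRC). The median over all rows was 14.6 CPM in WT, above EYA1, PAX2 and NEFM and below LHX1 and SALL1. In WT replicate 1 INS had 56 counts and EYA1 52, so these lists were not cleanly separated.

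The first result is how unevenly reads fell over the copies. For a sense of what a read had to distinguish, stretches upstream of the gene start are given from the RefSeq promoter windows. These windows are on GRCh38.p14, whereas the counts were made on T2T-CHM13, so the printed bases are not the counted positions. SRGAP2 encodes a GTPase activating protein of the Slit-Robo pathway, and SRGAP2B, SRGAP2C and SRGAP2D are its human copies. The stretches of SRGAP2C (chr1:121184756-121184905, plus strand) and SRGAP2 (chr1:206203291-206203440, plus strand) are shown because both promoters were among the most accessible members although they differ by only 2 bases, in capitals.
SRGAP2C: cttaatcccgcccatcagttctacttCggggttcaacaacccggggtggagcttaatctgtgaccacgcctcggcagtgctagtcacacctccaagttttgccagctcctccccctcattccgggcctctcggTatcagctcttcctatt
SRGAP2: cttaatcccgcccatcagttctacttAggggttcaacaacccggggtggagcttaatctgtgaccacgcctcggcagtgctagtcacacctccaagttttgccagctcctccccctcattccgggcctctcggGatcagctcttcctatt
Counted from 1 at the 5′ end of the printed stretch, the differences from SRGAP2 to SRGAP2C are A27C and G134T. The window of SRGAP2B matched that of SRGAP2 at 252 of 252 aligned bases and that of SRGAP2C at 273 of 275.

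SRGAP2C had 666 and 981 counts in KO and 539 and 471 in WT, given here and below as replicate 1 and replicate 2. SRGAP2 had 446 and 707 in KO and 422 and 399 in WT. Against these levels SRGAP2B was close to empty, with 5 and 9 counts in KO and 2 and 6 in WT, and SRGAP2D had 0 in all 4 libraries. A count of 0 allows up to 3 counts, which is 0.176 to 0.332 CPM depending on the library. With SRGAP2D set at that floor, SRGAP2C was at least 157-fold higher in the library where the bound was lowest. These bounds cover counting error only. The gene starts used on T2T-CHM13 were not examined here, so a row near 0 may also stand for a start placed elsewhere than in the other copies. SRGAP2C exceeded SRGAP2 by 1.18 to 1.49 times within each library, so the order of the 2 accessible copies was the same in all 4.

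FAM72 genes lie beside the SRGAP2 copies, and the paired rows repeated the pattern. FAM72B, next to SRGAP2C, had 650 and 953 counts in KO and 528 and 459 in WT, within 10% of SRGAP2C in every library, so both rows largely hold the same fragments. FAM72A, the neighbour of SRGAP2, had 95 and 127 in KO and 83 and 77 in WT. FAM72C and FAM72D had 0 in all libraries, and FAM72B was at least 153-fold above either one at the floor of 3 counts. SRGAP2 was 4.69 to 5.57 times higher than FAM72A in each library. The row of AVPR1B, not a member, had 100 and 126 in KO and 94 and 66 in WT. It was at most 14.3% apart from FAM72A in any library, so the rows may hold many of the same fragments. Whether the FAM72A row covers the start beside SRGAP2 on T2T-CHM13 was not examined, so no difference between paired promoters is read from it. SRGAP2-AS1, named as an antisense gene, had 50 and 87 counts in KO and 41 and 43 in WT.

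NOTCH2 encodes a Notch receptor, and the NOTCH2NL genes are truncated human-specific relatives of it. The stretches of NOTCH2 (chr1:120069776-120069895, minus strand), NOTCH2NLA (chr1:146229150-146229269, minus strand) and NOTCH2NLC (chr1:149390371-149390473, plus strand) are shown because NOTCH2NLC, the copy with most counts, lacks 17 bases that the other 2 carry, in capitals. Beside that gap NOTCH2NLC differs from NOTCH2 by 1 further base, C55T, counted from 1 at the 5′ end of the printed NOTCH2 stretch.
NOTCH2: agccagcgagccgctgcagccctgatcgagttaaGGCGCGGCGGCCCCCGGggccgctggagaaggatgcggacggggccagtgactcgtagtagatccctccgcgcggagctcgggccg
NOTCH2NLA: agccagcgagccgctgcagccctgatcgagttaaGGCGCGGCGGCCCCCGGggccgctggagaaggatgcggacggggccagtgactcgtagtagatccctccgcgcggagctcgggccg
NOTCH2NLC: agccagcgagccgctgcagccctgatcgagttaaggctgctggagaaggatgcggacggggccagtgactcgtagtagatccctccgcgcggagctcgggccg
Over the aligned part of their windows, NOTCH2 and NOTCH2NLA matched at 284 of 285 bases.

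NOTCH2NLC had 169 and 247 counts in KO and 107 and 126 in WT. NOTCH2 had 81 and 135 in KO and 61 and 70 in WT, so NOTCH2NLC was 1.75 to 2.09 times higher within each library. NOTCH2NLA had 1 and 1 in KO and 2 and 3 in WT, and NOTCH2NLB and NOTCH2NLR had no count outside WT replicate 1, where each had 1. Of the 5 rows, the receptor gene and a single NOTCH2NL copy thus held nearly all counts, with NOTCH2NLC at 62.8% ± 0.783 of the family in WT and 65.9% ± 2.01 in KO (SD, n = 2). Whether the missing 17 bases or the further base bear on this was not tested.

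**Figure D1:**
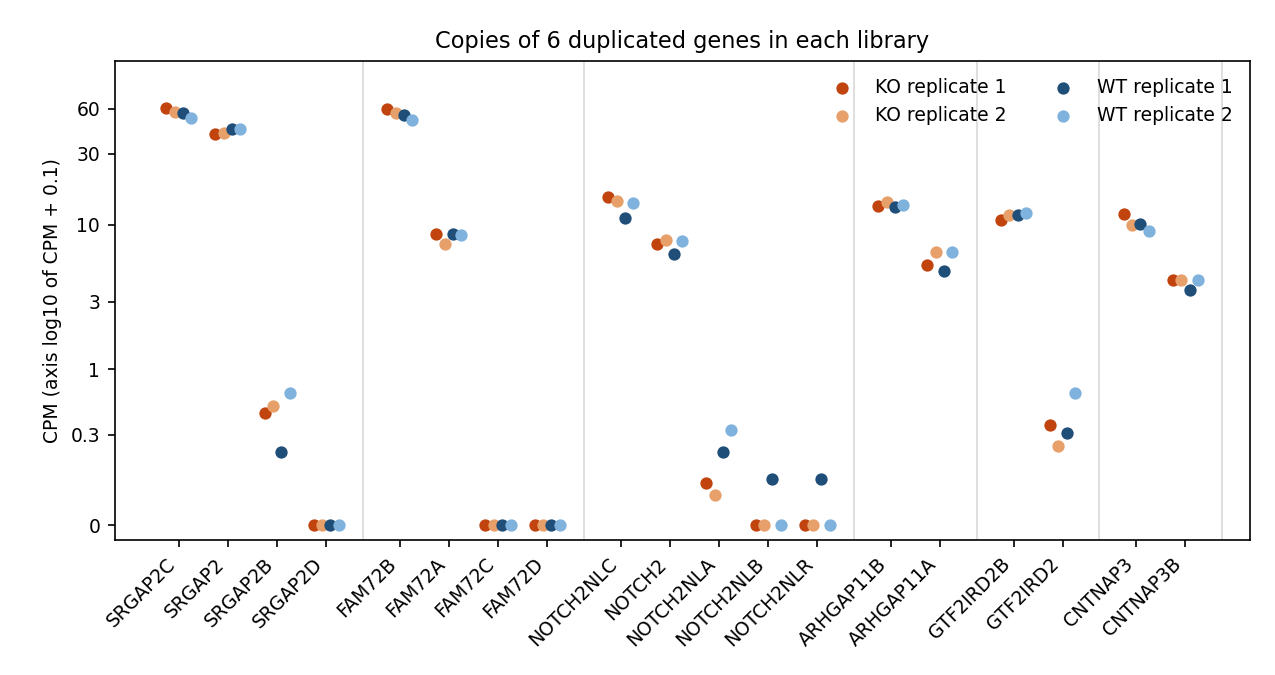
Promoter CPM of the copies of 6 duplicated genes, 1 point per library (2 KO, 2 WT), on an axis of log10(CPM + 0.1) labelled in CPM. SRGAP2C, SRGAP2, FAM72B, NOTCH2NLC and ARHGAP11B stand high in all 4 libraries, whereas SRGAP2D, FAM72C and FAM72D sit at 0 in all 4.

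The same unevenness was seen in the smaller families. ARHGAP11B, a human-specific copy known for amplifying basal progenitors in the cortex, had 145 and 243 counts in KO and 127 and 123 in WT. Its ancestor ARHGAP11A, which encodes a GTPase activating protein, had 58 and 112 in KO and 47 and 59 in WT, so the copy exceeded it by 2.08 to 2.70 times. Their divergent transcripts ARHGAP11B-DT and ARHGAP11A-DT, and the readthrough gene ARHGAP11A-SCG5, had counts within 10% of their partners in every library and add no separate measurement. GTF2IRD2B, a TFII-I repeat gene of the Williams region, had 117 and 198 in KO and 113 and 108 in WT and took 96.1% ± 1.89 of its family's counts in WT (SD, n = 2). GTF2IRD2 had 4 and 4 in KO and 3 and 6 in WT.

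The CNTNAP3 rows, which name contactin-associated proteins on chromosome 9, were all measurable. CNTNAP3P2 had 168 and 257 counts in KO and 137 and 105 in WT, CNTNAP3 had 130 and 170 in KO and 97 and 82 in WT, and CNTNAP3B had 46 and 72 in KO and 35 and 38 in WT. CNTNAP3 exceeded CNTNAP3B by 2.16 to 2.83 times in each library, and its window shared no 65-base word with another window. Of the 8 ANKRD20A rows, named for ankyrin repeats, ANKRD20A5P was highest, with 145 and 202 in KO and 112 and 98 in WT, and 4 rows were tested. FRG1, named for its place in the facioscapulohumeral dystrophy region of chromosome 4, had 315 and 486 in KO and 246 and 188 in WT. Its pseudogene FRG1BP on chromosome 20 followed with 178 and 337 in KO and 143 and 150 in WT.

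The larger families held most of the rows close to 0 counts. Of 17 NPIP rows, all on chromosome 16, 9 had at most 3 counts in each library and 4 were tested. NPIPA2 had 485 and 681 counts in KO and 420 and 393 in WT, which was 52.8% ± 0.491 of the family in WT (SD, n = 2). The row of its neighbour BFAR, not a member, had 490 and 768 in KO and 430 and 447 in WT. The NPIPA2 and BFAR rows were at most 12.1% apart in any library, so they may hold many of the same fragments. NPIPB2 had 333 and 537 in KO and 264 and 265 in WT, within 10% of the neighbouring SNX29 row in every library, so these fragments cannot be assigned to either gene. Of 37 GOLGA6 and GOLGA8 rows, all on chromosome 15, 20 had at most 3 counts in each library and 7 were tested. GOLGA8B led with 250 and 401 in KO and 178 and 168 in WT, followed by GOLGA8A with 134 and 208 in KO and 123 and 120 in WT.

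Of the NBPF rows 13 of 18 were tested, and the counts were spread over many of them. NBPF25P had 369 and 597 counts in KO and 321 and 266 in WT, and the row of its neighbour GPR89A differed from it by under 10% in every library. NBPF11 had 316 and 525 in KO and 305 and 260 in WT, and NBPF20 had 370 and 509 in KO and 244 and 268 in WT. The highest of these 3 was not the same in every library, and NBPF25P held only 15.8% ± 0.940 of the family in WT (SD, n = 2). In each of the other 10 families 1 row was highest in all 4 libraries once rows with counts within 10% of each other in every library, such as FRG1 and FRG1-DT, were taken as 1. At the low end NBPF4 had 0 in all libraries, while NBPF14, NBPF19 and NBPF26 had at most 6 counts in any library.

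Across all families, 15 of 113 members (13.3%) were at 0 in every library, compared with 1.31% of all rows. Members with at most 3 counts in each library numbered 39 (34.5%), against 2.19% of all rows. The median WT level was 0.592 CPM over all members and 14.6 CPM over all rows, and the filter on low counts kept 52 members (46.0%) against 96.1% of all rows. A list of 151 rows from other duplicated families was alike in this respect, with 49.7% kept and 13.2% at 0. The paper defined promoters as windows of a fixed length around the gene start, so CPM was not scaled by length. Copies can still differ in how many of their reads have a unique place.

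**Figure D2:**
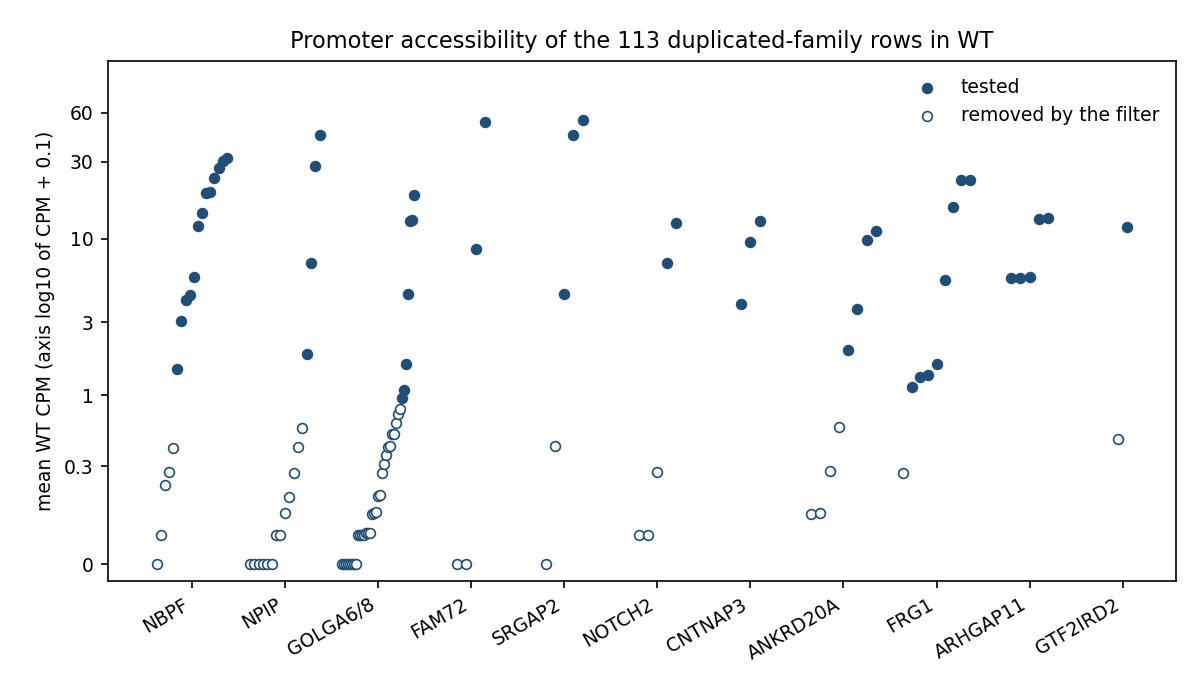
Mean WT CPM (n = 2) of each of the 113 members by family, ordered within each family, on an axis of log10(CPM + 0.1) labelled in CPM. Filled points passed the filter on low counts and were tested (52), and open points did not (61). GOLGA6/8 and NPIP hold most of the open points.

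RefSeq promoter windows, from 250 bases before to 50 after a gene start, were found for 71 of the 113 members. Each window was cut into words of 65 bases, the length of a read, and the share of words that occur in any other promoter window was counted. The 20 members that shared no word had a median of 3.78 CPM in WT, and 12 of them were tested. The 11 members whose every word recurred elsewhere had a median of 0.0554 CPM, none was tested, and no library had more than 7 counts at any of them. All of these but NOTCH2NLA were GOLGA6 or GOLGA8 rows, so this class largely describes that family. Between these ends, the 12 members sharing up to 50% of words had a median of 0.671 CPM and the 28 sharing more had 0.213 CPM. Spearman's correlation between the shared percentage and WT CPM was −0.37 over the 71 members, a description, since copies of one family share sequence and are not independent and the words cover only part of the counted window.

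Several members went against that order. SRGAP2 shared 84.7% of its words and had 44.0 CPM in WT, NBPF15 shared 82.6% and had 23.9 CPM, and NOTCH2NLC shared 79.2% and had 12.5 CPM. In the other direction, NPIPB6 shared no word and had 0 counts in all libraries, and NPIPB12 shared none and had at most 1. The words were matched to other promoter windows of GRCh38.p14 and not to the rest of the genome or to T2T-CHM13, so the uniqueness of the counted windows was not tested. Low counts at a duplicated promoter cannot be read as closed chromatin.

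**Figure D3:**
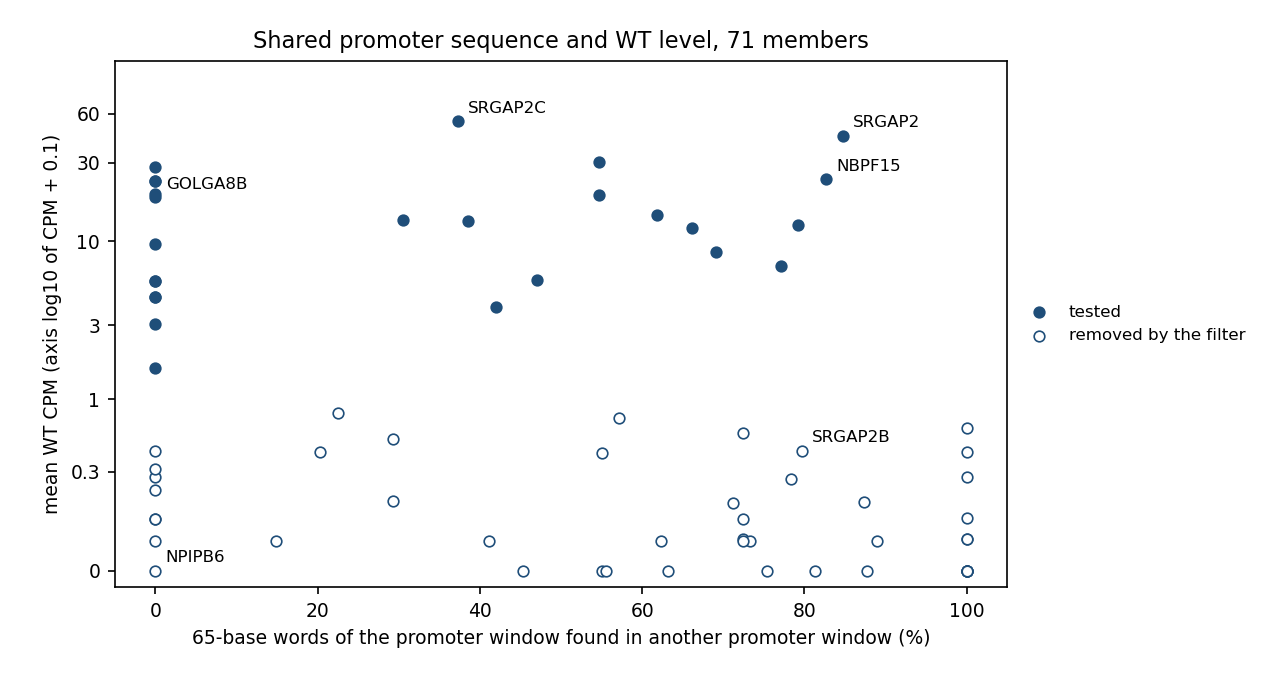
Percentage of 65-base words of a member's promoter window that occur in another promoter window (x) against its mean WT CPM (y, axis of log10(CPM + 0.1) labelled in CPM), for 71 members. No filled (tested) point lies at 100%, while SRGAP2 (84.7%) and NBPF15 (82.6%) are high.

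The windows also differed in base composition. The dinucleotide CG occurred a median of 8 times per member window (range 0 to 43), compared with 20 in all windows of rows in the table. The median was 20.5 in the 26 tested members with a window and 6 in the 45 that were not tested. Spearman's correlation between the number of CG and WT CPM was 0.51 over the 71 members, again a description over windows that share sequence. The letters CCAAT, searched on both strands with no other motif, were found in 25 of 28 GOLGA6 and GOLGA8 windows (89.3%), in 53.5% of the 71 member windows and in 36.2% of all windows of rows in the table. A match to these letters is not a binding site, and the GOLGA copies are near repeats of one another.

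Stretches from the FRG1, GOLGA8B and GOLGA8J promoters show this contrast, with CG in capitals. The FRG1 stretch (chr4:189940734-189940871, plus strand) lies between the starts of FRG1 and FRG1-DT and holds 11 CG. The GOLGA8B stretch (chr15:34583652-34583801, minus strand) holds 19, and that of GOLGA8J (chr15:30082805-30082954, plus strand) holds 4.
FRG1: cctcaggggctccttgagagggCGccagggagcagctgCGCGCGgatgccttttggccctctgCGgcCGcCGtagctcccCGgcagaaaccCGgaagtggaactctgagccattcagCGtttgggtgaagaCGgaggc
GOLGA8B: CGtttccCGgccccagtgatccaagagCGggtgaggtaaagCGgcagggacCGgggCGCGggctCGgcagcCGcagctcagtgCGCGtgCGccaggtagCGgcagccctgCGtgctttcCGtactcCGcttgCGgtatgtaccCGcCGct
GOLGA8J: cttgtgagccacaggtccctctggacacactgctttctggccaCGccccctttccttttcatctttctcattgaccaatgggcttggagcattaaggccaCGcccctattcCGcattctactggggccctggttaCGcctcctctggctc
The whole window of GOLGA8J is identical to that of GOLGA8T over 300 of 300 bases. GOLGA8J had 5 and 1 counts in KO and 4 and 4 in WT, and GOLGA8T had 2 and 3 in KO and 0 and 1 in WT. The windows of FRG1 and GOLGA8B shared no 65-base word with any other window.

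The comparison of KO with WT asked how promoter accessibility of these copies differed without MORC2. A row was called where the adjusted p of edgeR's quasi-likelihood test over all 27647 tested rows was under 0.05. Of the 52 tested members, 3 were called higher in KO and 0 lower. DESeq2 called 0 members and 0.0246% of all rows, so its 0 says little about the members. The shares of all rows called in the other fits are given in the closing section. At an unadjusted p under 0.05 the edgeR test listed 7 members (13.5%), against 20.3% of all tested rows. The called share of 5.77% stands beside 4.45% of all tested rows (3.45% higher, 0.995% lower), and nothing is read from it, since the contrast chose the families. The called rows were FRG1, FRG1-DT and GOLGA8B. FRG1 and FRG1-DT hold the same fragments, so these were 2 distinct loci, and none of the members was called without KO replicate 2 or without WT replicate 2. Without KO replicate 1 the single called member was NBPF8, and without WT replicate 1 FRG1, FRG1-DT and NBPF8 were called.

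FRG1 was at 28.7 ± 0.278 CPM in KO against 23.2 ± 3.34 CPM in WT (SD, n = 2), a difference of 0.30 on the log2 scale (SE 0.096). Both KO libraries were above both WT libraries, but the WT replicates were far apart, and without WT replicate 2 the difference was 0.17. The tested rows next to it, LINC01262 and LINC02508, had differences of −0.76 (SE 0.42) and −0.67 (SE 0.37) and were not called. FRG1 thus differed in sign from its neighbourhood, where the median over the 10 nearest tested rows was −0.29. All 10 lie on the same side of it, and LINC01262 had 8 to 14 counts and LINC02508 10 to 21. Values at few counts depended on the scaling. With loess offsets on abundance, ANKRD20A11P (15 to 30 counts) went from −0.24 to 0.022 and FRG1 from 0.30 to 0.26. The neighbourhood median was not computed with those offsets. The FRG1 pseudogenes on chromosome 20 lay in a stretch of the same sign, with neighbourhood medians of −0.34 to −0.29, and ranged from −0.79 (SE 0.46) at FRG1DP, which had 9 to 11 counts, to 0.22 (SE 0.12) at FRG1BP.

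GOLGA8B was at 23.2 ± 0.413 CPM in KO against 18.5 ± 0.0861 CPM in WT (SD, n = 2), a difference of 0.33 (SE 0.11). The KO and WT libraries did not overlap, and with any 1 library left out the difference stayed at 0.31 to 0.36, although none of those fits called it. GOLGA8A, the adjacent row and near namesake, lay the other way at 12.2 ± 0.0660 CPM in KO against 13.0 ± 0.366 CPM in WT, a difference of −0.090 (SE 0.13) that was not called. The difference between the 2 genes was not tested. Of the other tested rows around GOLGA8B, LPCAT4 had 0.0057 (SE 0.082), LINC02252 −0.14 (SE 0.32) and GJD2 0.073 (SE 0.19). None was called, but the SEs of LINC02252 and GJD2 are too wide to exclude a difference of 0.33. GOLGA8B held 31.6% ± 0.761 of the family's counts in WT and 38.9% ± 0.672 in KO (SD, n = 2).

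Over the 52 tested members the log2 differences ran from −0.79 to 0.35, with a median of 0.084 against −0.017 over all tested rows, and 31 of 52 (59.6%) were above 0, against 46.7% of all. With no filter the median over 98 members was −0.0042, so its sign changed when rows of low counts were kept. The groups did not overlap at 22 of the 52 (42.3%), against 50.6% of all tested rows. In 14 (26.9% of the members, against 25.2% of all) both KO libraries were higher, and in 8 (15.4%, against 25.4%) both were lower. Replicates differed by a median of 0.102 (KO) and 0.158 (WT) on the log2 scale at tested members, and by 0.100 and 0.127 over all tested rows.

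**Figure D4:**
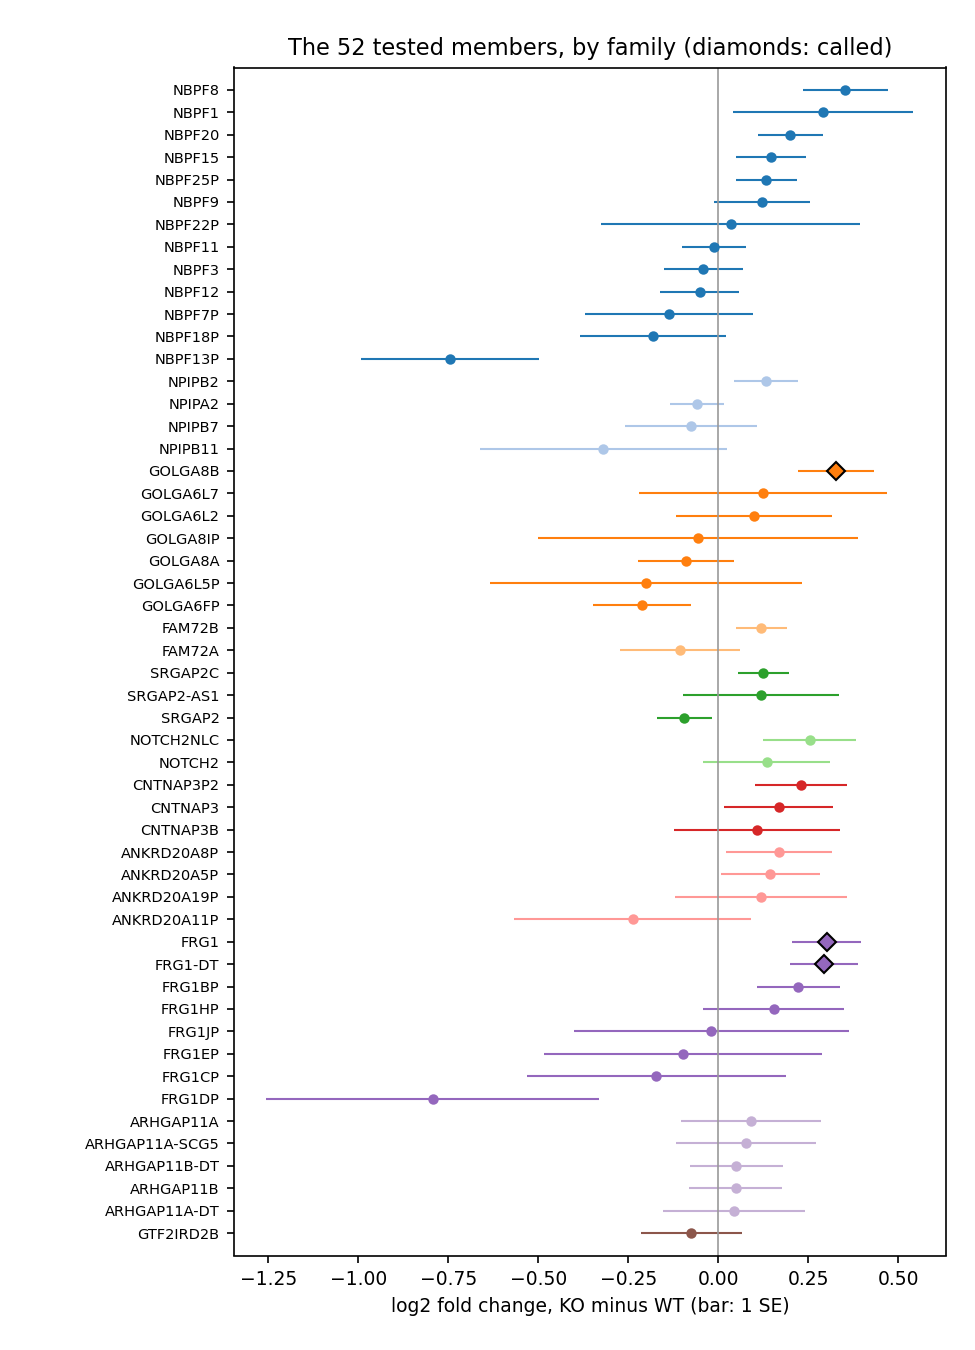
Log2 difference of KO minus WT with 1 SE for the 52 tested members, coloured by family, diamonds marking the 3 called rows. Most values lie within 0.3 of 0, and the SE widens at pseudogenes with few counts such as FRG1DP (0.46).

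By family, the medians were 0.19 for 2 NOTCH2 rows, 0.17 for 3 CNTNAP3 rows, 0.13 for 4 ANKRD20A rows and 0.12 for 3 SRGAP2 rows. They were 0.068 for 8 FRG1 rows, 0.050 for 5 ARHGAP11 rows, 0.035 for 13 NBPF rows and 0.0071 for 2 FAM72 rows. The lowest were −0.055 for 7 GOLGA6/8 rows, −0.067 for 4 NPIP rows and −0.075 for GTF2IRD2B. This order depended on the processing. With loess offsets on abundance the medians of GOLGA6/8 and FRG1 were both 0.23, beside 0.26 for NOTCH2 and 0.24 for CNTNAP3. The ARHGAP11 median was −0.11 without WT replicate 1 and 0.28 without WT replicate 2. None of these families had a called row apart from FRG1 and GOLGA6/8. NOTCH2NLC had 0.25 (SE 0.13) and NOTCH2 0.14 (SE 0.18), while SRGAP2C had 0.13 (SE 0.070) and SRGAP2 −0.094 (SE 0.076).

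Paired FAM72 and SRGAP2 rows lay on the same side of 0, with no test of this. For the pair FAM72B and SRGAP2C this had to be so, since both rows largely hold the same fragments. The FAM72A row was instead close to that of AVPR1B, which had −0.077, and whether it measures the start beside SRGAP2 was not tested. FAM72B (0.12, SE 0.070) and SRGAP2C lay on the higher side in KO, and FAM72A (−0.11, SE 0.17) and SRGAP2 on the lower side, with both SRGAP2 KO libraries below both WT libraries in CPM. In NBPF the extremes were NBPF8 at 0.35 (SE 0.12) and NBPF13P at −0.75 (SE 0.25). NBPF13P had 31 and 43 counts in KO and 40 and 43 in WT, and NBPF8 had 180 and 343 in KO and 158 and 114 in WT. Neither was called, and both were called when the limit on the adjusted p was set at 0.1. NPIPB11, the NPIP row farthest from 0, had −0.32 (SE 0.34), and ANKRD20A11P had −0.24 (SE 0.33), both on 15 to 30 counts per library. NPIPA2 (−0.059, SE 0.076), NBPF25P (0.13, SE 0.085) and ANKRD20A5P (0.15, SE 0.14) were each the highest row of a family, and none was called.

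The stretches around the members were described by the median of up to 20 tested non-member rows, 10 on each side in RefSeq gene order. The highest such medians were on chromosome 9, at 0.23 around CNTNAP3B and FRG1HP, 0.18 around CNTNAP3 and 0.12 around CNTNAP3P2 and FRG1JP. The members there had 0.11 (SE 0.23) at CNTNAP3B, 0.15 (SE 0.20) at FRG1HP, 0.17 (SE 0.15) at CNTNAP3 and 0.23 (SE 0.13) at CNTNAP3P2, none of them called. FRG1JP, on 8 to 23 counts, had −0.019 (SE 0.38). Around NBPF and SRGAP2 rows of chromosome 1 the medians were mostly near 0, such as 0.064 at SRGAP2C and −0.052 at SRGAP2. These stretches were part of why the families were proposed, and neighbouring rows share libraries and sometimes fragments.

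**Figure D5:**
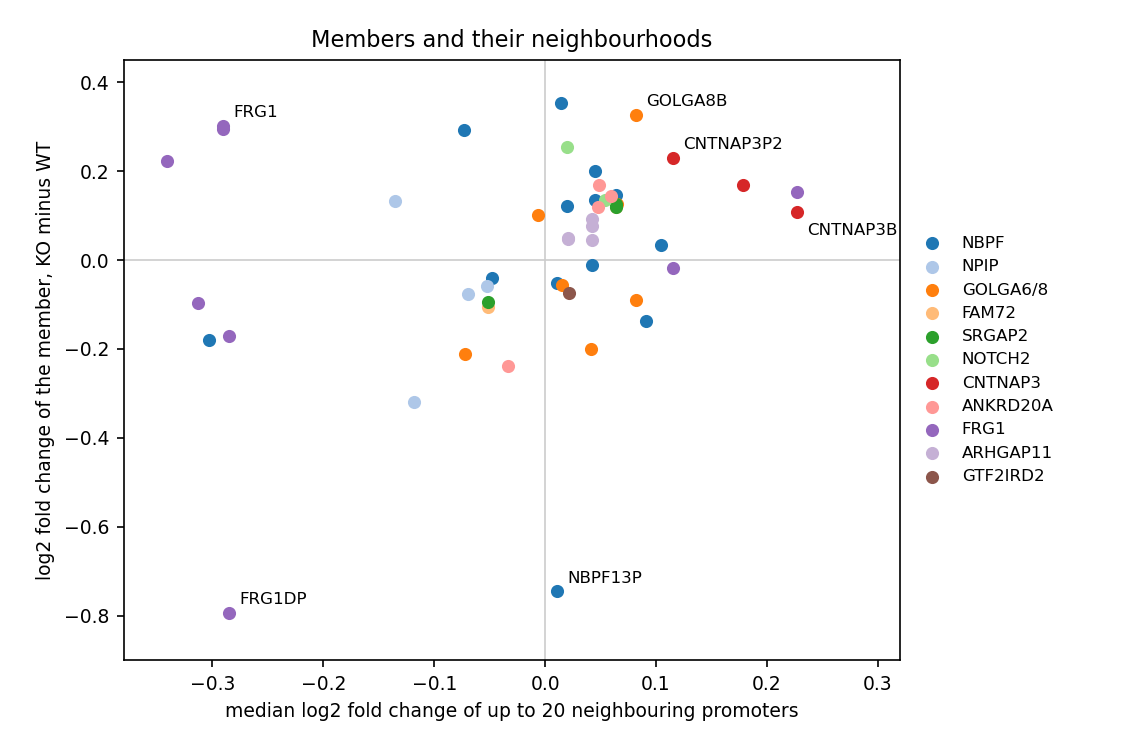
Log2 difference of each tested member (y) against the median over up to 20 neighbouring non-member rows (x), coloured by family. The chromosome 9 rows, CNTNAP3 among them, lie to the right of 0, and FRG1 lies at −0.29 on the x axis with 0.30 on the y axis.

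Neighbouring member rows with counts within 10% of each other in every library were counted once for a sum. Members then came to 638 ± 0.255 CPM in KO against 607 ± 4.98 CPM in WT (SD, n = 2), with both KO libraries above both WT libraries. The NBPF rows contributed 209 ± 1.66 CPM in KO against 198 ± 5.54 CPM in WT, the largest share of any family. SRGAP2 rows followed with 106 ± 1.71 CPM in KO against 103 ± 1.75 CPM in WT. Among other duplicated families outside the rule, 75 of 151 rows were tested, their median difference was −0.018, and 1 was called, WASH2P at 0.51 (SE 0.13), named after its value was seen.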

How the data were processed

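The authors trimmed the paired reads, aligned them with Bowtie2 to T2T-CHM13, removed reads of low mapping quality, improper pairs and Picard-marked duplicates, and deposited raw counts per promoter. The study counted fragment midpoints in genomic windows, and how the promoter table was counted is not given in the sources used here. Peak calls were not used here. Symbols came from the RefSeq gene table, which named 28763 of 28775 IDs, and 113 of its 157 symbols matching the rule were in the table. Members and lists were chosen with earlier results of these data known. Named members were the highest and the most changed tested row of each family, called rows with their neighbours, and copies listed in advance. Other members were named after their values were seen.

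The study used filterByExpr, TMM and edgeR's quasi-likelihood test on small genomic windows and summarised them to promoters. Here the same filter, scaling and test were run directly on the deposited promoter counts (edgeR 4.0.16, R 4.3.3). The fit covered 27647 tested rows, 2 KO against 2 WT libraries, with Benjamini-Hochberg adjustment. It called 1229 rows (954 higher and 275 lower in KO), far more than the genes the paper reported from its windows. The calls here are therefore not comparable with those of the paper. CPM used TMM-scaled library sizes. On data simulated from these means, 86.5% of 200 promoters changed by 0.6 (log2) were recovered, and 15 calls were false (7.98% of calls). Those promoters were drawn from rows above a floor of counts, with a single dispersion for all rows. The change of 0.6 exceeded that of every called member, so this is not the recovery rate for the members. The numbers of the replicates did not pair the libraries (r = −0.00027 between deviations over 27647 rows). P-values rest on counting error and on a variance estimated from 2 libraries per group and partly shared over all rows. They do not measure the replicate spread of a single row. FRG1 had WT replicates 0.29 apart (log2) and an SE of 0.096. GOLGA8B had WT replicates 0.0092 apart and a larger SE of 0.11. Alternatives were other scalings, filters, tests (DESeq2 1.42.0) and left-out libraries. RefSeq windows are on GRCh38.p14, and 65-base words were matched on both strands.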

Additional observations from a re-analysis of the deposited data

How the results depend on the processing

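The count of 3 called members was 0 with loess offsets (1.42% of all rows called), with total-count scaling (0.0723%) and in the DESeq2 Wald test (0.0246%), and 5 at an adjusted p under 0.1 (8.13%). At an unadjusted p under 0.05, DESeq2 listed 2 members (5.08% of all rows), the loess fit 8 (13.1%) and the total-count fit 9 (10.7%). With the replicate block it was 0 (2.77% of all rows; at an unadjusted p under 0.05, 6 members and 19% of all rows), where the numbers only name the libraries (r = −0.00027 between deviations over 27647 rows). Leaving out 1 library at a time gave 0 to 3. It was 1 without KO replicate 1 (3.10% of all rows), 0 without KO replicate 2 (0.148%), 3 without WT replicate 1 (5.89%) and 0 without WT replicate 2 (0.827%). DESeq2 size factors gave 3 (4.63%), no filter 4 (4.38%), no mitochondrial rows 2 (4.5%) and the robust fit 2 (4.56%). The median log2 difference of 0.084 was 0.22 with total-count scaling, where the median of all rows was 0.12, and 0.15 with loess offsets. It was −0.0042 with no filter and −0.020 with DESeq2, both over 98 members. It was 0.054 with the replicate block, and 0.032 to 0.11 with 1 library left out. Counting neighbouring member rows with counts within 25% of each other in every library as 1 gave 0.063 over 46 rows. Spearman's correlation of −0.37 was −0.36 with 30-base words and −0.33 in KO. The cause of these changes was not tested.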
